A study of Zea mays with 8 samples.

Results

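In the leaf of maize (Zea mays), 50 of the 43110 loci in the deposited expression table had opposite nitrogen responses in neighbouring growth zones: they were lower under low nitrogen in the elongation zone and higher under low nitrogen in the division zone. They were chosen on these measured values, so their nitrogen differences describe the choice and carry no test. A locus was taken when its mean log2(FPKM + 1) under low nitrogen lay at least 0.6 below that under high nitrogen in the elongation zone and at least 0.6 above it in the division zone. The libraries of the 2 supplies also had to be separated in each zone, and some group had to average at least 3 FPKM, a read count scaled by transcript length and library size. The rule left out locus XLOC_007049. Of all loci, 20407 reached 3 FPKM in some group and 24706 reached the 1 FPKM needed for the fit, all 50 among them.

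The samples were zones of leaf 6 from plants of the inbred line B73 in hydroponic culture, all of 1 genotype. The 4 groups were LN elongation zone, HN elongation zone, LN division zone and HN division zone, where LN is 0.04 mM and HN is 4 mM nitrogen. Each group had 2 libraries, called biological replicates in the series description. The sources used here do not give the age of the plants, the number pooled per library or where the zones were cut.

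A grass leaf grows from its base. Cells multiply in the basal division zone and are then displaced outward into the elongation zone, where they stop dividing and lengthen. Dividing cells copy their DNA and package the copies on core histones, with linker histones of the H1 class holding the packed fibre, and histone genes are mostly transcribed while DNA is being copied. Ribonucleotide reductase supplies the deoxyribonucleotides for that copying. Nitrogen shortage is known to slow leaf growth in cereals.

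Library sums ran from 652957 to 1113550 FPKM, and the 50 loci together held 0.0813 to 0.838% of a library's sum. Read depth is not given in the sources used here, so no counting error can be attached. Between replicates, the median SD of log2(FPKM + 1) over the loci tested was 0.10 in LN elongation, 0.27 in HN elongation, 0.15 in LN division and 0.12 in HN division libraries. Over the 50 loci it was 0.19, 0.41, 0.29 and 0.21 in the same groups, so they spread more than the whole table in each of the 4 groups. In bulk tissue, fewer cells of a type and less RNA per cell cannot be told apart.

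The zone labels matched the marker genes: all 7 markers of dividing cells were lower and all 6 markers of lengthening cells were higher in the elongation zone (limma, adjusted p under 0.05 for the mean of both supplies). The 7 division markers summed to 117 and 103 FPKM in LN elongation and 392 and 732 FPKM in HN elongation libraries. In the division zone they summed to 1454 and 1875 FPKM under LN and 1767 and 1385 FPKM under HN, so the supplies overlapped there. Most of each sum came from the histone his2b5. It had 67.7 and 69.3 FPKM in LN elongation and 296 and 582 FPKM in HN elongation libraries. In the division zone it had 822 and 1152.5 FPKM under LN and 1183.5 and 866 FPKM under HN. Of these 7 markers, 5 were called lower under LN in the elongation zone (MCM6, MCM7, PCNA2, RNRS1 and his2b5). The remaining markers, cyc3 and krp13, were not lower there, and the largest difference was 0.43. The 6 loci of the mature blade list, 1 of which (RBCS, XLOC_020990) was listed at 0 in every library, summed to 283 and 170 FPKM in LN elongation, 1131 and 1545 FPKM in HN elongation, 23.2 and 30.9 FPKM in LN division and 76.6 and 77.1 FPKM in HN division libraries. The meristem and leaf base markers summed to 0.122 and 0.136, 0.0507 and 0.0715, 27.9 and 29.6, and 4.56 and 6.01 FPKM in the same groups, in the division zone nearly all from yab14. The 3 epidermal markers matched summed to 49.1 to 66.3 FPKM over all libraries, and the root marker matched was at 0 in each. The part of cell makeup in the results below was not tested.

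All 50 loci have the same nitrogen signs by choice, so they are grouped here by their mean zone difference. Averaged over both supplies, 30 were lower in the elongation zone than in the division zone, 10 were higher and 10 were not called (limma, BH-adjusted p under 0.05). The average did not hold at each supply in all loci. Of the 30, all were lower in the elongation zone at LN but only 25 at HN. Of the 10 called higher, 3 were lower there at LN and 0 at HN. Over the 24706 loci tested, 27.7% were called lower and 30.5% higher, so the 50 held more lower calls and fewer higher calls than the background. This zone average weights LN and HN equally, and with equal spread in all groups it is independent of both nitrogen differences. Spread was largest in HN elongation libraries, so that independence is approximate. The median zone average was -1.03 on the log2(FPKM + 1) scale, against 0.02 over all loci tested. Leaving out a library moved the counts to 27 to 31 lower and 10 or 11 higher.

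The nitrogen differences had medians of -1.02 in the elongation zone (range -7.65 to -0.60) and 0.81 in the division zone (range 0.60 to 6.89). The medians over all loci tested were 0.07 and -0.01. The fit called 24 of the 50 lower under LN in the elongation zone, where the background share was 12.5%, and 7 higher under LN in the division zone, where it was 1.81%. Both contrasts chose the loci, so nothing is read from these counts. Opposite responses were uncommon in the table: 1568 loci met the same size and separation limits downward in both zones, 491 upward in both, and 89 were higher under LN in the elongation zone and lower in the division zone. The 50 are 1.31% of the 3806 loci that met the limits downward in the elongation zone and 3.005% of the 1664 that met them upward in the division zone. The size of the set changed when single libraries were left out. That leaves 1 library in a group and makes separation easier to meet, so loci can enter for that alone. It held 160 loci without HN elongation replicate 1, 121 without LN division replicate 1 and 107 without HN division replicate 1.

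**Figure D1:**
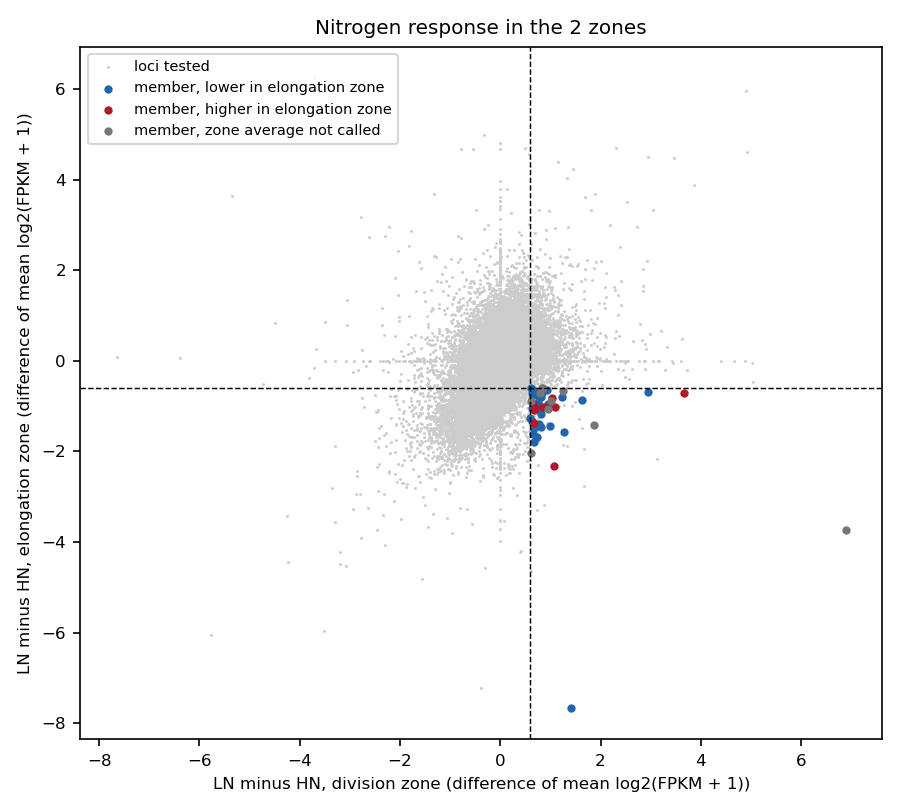
Nitrogen difference (LN minus HN, difference of mean log2(FPKM + 1)) in the elongation zone on the vertical axis against that in the division zone on the horizontal axis, for 24706 loci tested (grey) and the 50 chosen (coloured by their zone average). The chosen loci lie right of 0.6 and below -0.6 (dashed lines), most of them near that corner, with 2 far out at -7.65 in the elongation zone and at 6.89 in the division zone.

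The rule puts LN division above HN division and HN elongation above LN elongation, so only LN division or HN elongation can be highest. Which of the 2 it is follows largely from the zone average, so nothing is read from it. LN division was highest in all 30 loci called lower in the elongation zone, and HN elongation in all 10 called higher. The 10 not called were split 5 and 5. The most common order, found in 25 loci, ran LN division, HN division, HN elongation, LN elongation from high to low. Another 8 ran HN elongation, LN division, LN elongation, HN division, and 8 ran LN division, HN elongation, HN division, LN elongation. In 7 loci both elongation groups were above both division groups. The median difference of elongation minus division zone was -2.02 at LN and -0.01 at HN, a gap that the rule itself opens.

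**Figure D2:**
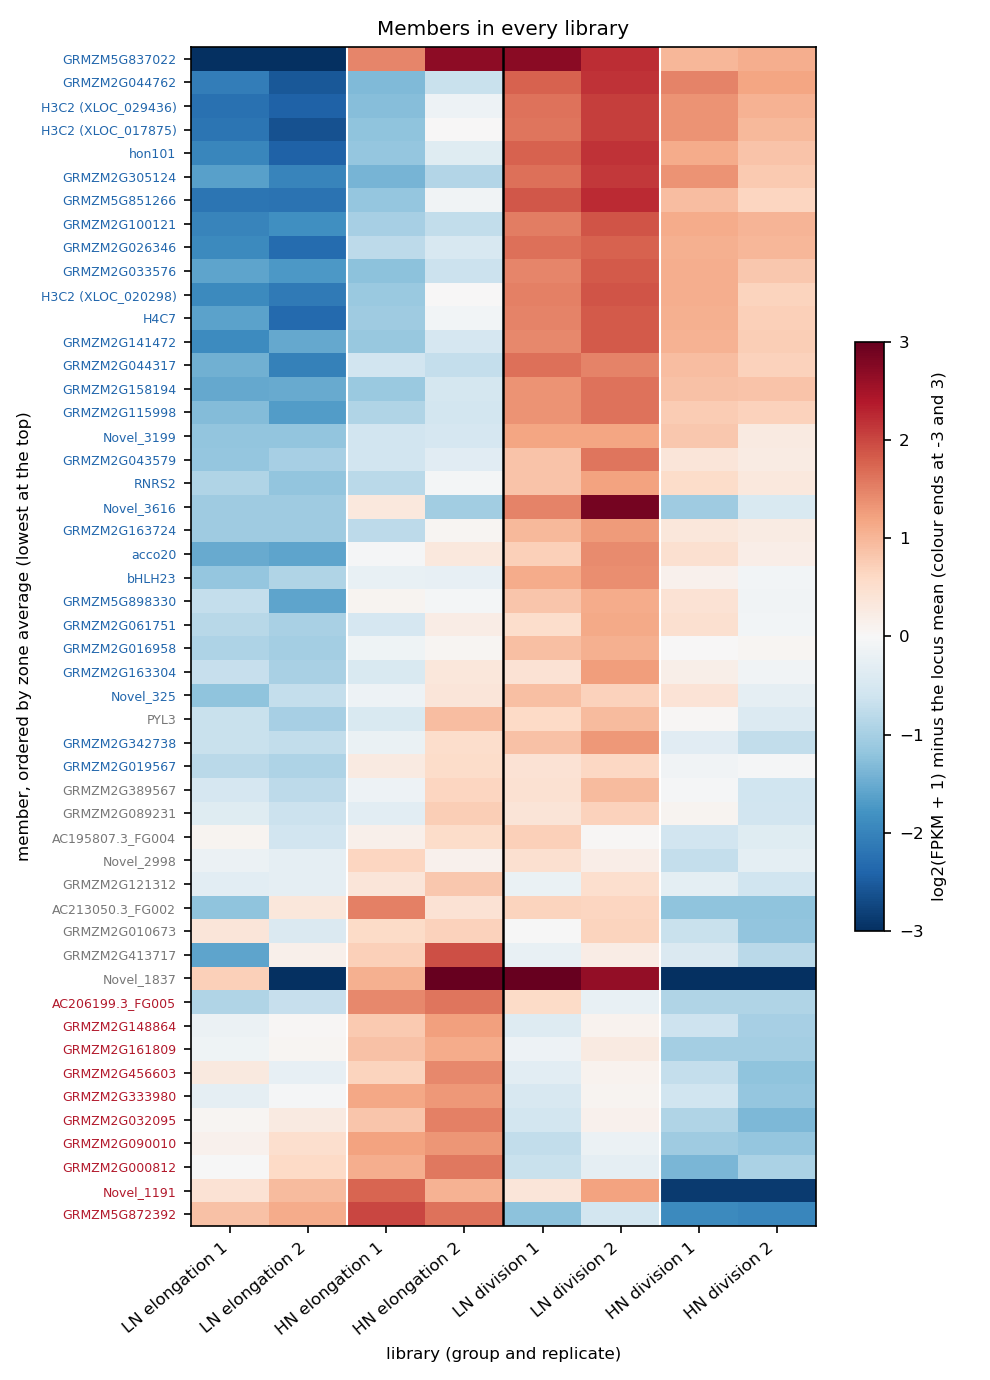
log2(FPKM + 1) of the 50 loci minus each locus's own mean in the 8 libraries (columns, by group and replicate), ordered by zone average with the lowest at the top; names are blue for lower, red for higher and grey for not called in the elongation zone. The 30 blue loci have their highest mean in the LN division columns, and the 10 red loci in the HN elongation columns.

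Histones were the best represented family among the loci with an informative gene name. Of these 9 loci, 5 were histones: the linker histone hon101, 3 loci named H3C2, a core histone H3 gene, and 1 named H4C7, a core histone H4 gene. Over the 24706 loci tested, 2153 had such a name and 33 were in the histone list. The 3 H3C2 loci are paired with 1 gene, so the 5 are loci and not separate genes. All 5 were lower in the elongation zone on the average of both supplies. Their place in the set leans on single libraries: without HN division replicate 2, hon101 alone of the 5 kept the rule, and without LN division replicate 2, hon101 and the H3C2 locus XLOC_020298 did. hon101 (GRMZM2G080274, chromosome 2, 16047725 to 16049837) was the most abundant of the 50. It had 94.8 and 68.6 FPKM in LN elongation against 167 and 289.5 FPKM in HN elongation libraries. In division zones it had 1275 and 1694 FPKM under LN against 815 and 671 FPKM under HN. The 4 groups did not overlap, and in the division zone LN averaged 1.998-fold HN. Its zone average was -2.96 ± 0.24 (SE; limma, BH-adjusted p = 7.54e-05).

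The H3C2 locus XLOC_020298 (chromosome 4, 112897032 to 112897982) had 88.4 and 75.6 FPKM in LN elongation against 154 and 339 FPKM in HN elongation libraries. In division zones it had 952 and 1232 FPKM under LN against 717 and 531 FPKM under HN. The order of groups was that of hon101, and the HN elongation replicates lay far apart. H4C7 (XLOC_035314, chromosome 7, 146636823 to 146645061) had 110.2 and 66.0 FPKM in LN elongation against 160.0 and 322 FPKM in HN elongation libraries, and 949 and 1208 FPKM in LN division against 707 and 558 FPKM in HN division libraries. It shares its span with locus XLOC_033734, which had 4.57 and 5.87 FPKM in LN elongation, 3.22 and 1.93 FPKM in HN elongation, 0.889 and 0.820 FPKM in LN division and 1.23 and 1.21 FPKM in HN division libraries. That neighbour was thus far lower, and its groups ran in the reverse order.

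The other H3C2 loci had lower levels and the same order. XLOC_017875 (chromosome 3, 132295043 to 132296689) had 18.7 and 13.8 FPKM in LN elongation, 38.0 and 89.7 FPKM in HN elongation, 271 and 380 FPKM in LN division and 229 and 174 FPKM in HN division libraries. XLOC_029436 (chromosome 6, 77039007 to 77040996) had 12.3 and 10.6, 24.5 and 54.9, 192 and 261, and 158 and 128 FPKM in the same groups. The zone averages of the 3 H3C2 loci ran from -3.05 to -2.57 and that of H4C7 was -2.55, with SEs of 0.26 to 0.29. RefSeq pairs all 3 with 1 gene, and in the histone list that gene takes in 9 loci and the H4C7 gene 15, so reads of near-identical copies could be divided among loci of the same name. hon101 was paired with a gene of its own.

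The whole histone list held 33 loci matched to 12 RefSeq genes, with linker histones and the centromeric cenH3 included. All 33 were lower in the elongation zone on the average of both supplies. Under LN, 28 of 33 were called lower in the elongation zone (background 12.5%), the 5 chosen ones among them, and 0 were called in the division zone by limma, with 1 at an unadjusted p under 0.05. Signs of any size were negative in the elongation zone and positive in the division zone in 26 of 33 loci, a count that includes the 5 chosen for these signs. Among the 28 others it was 21 (75%), against 13.2% of all loci tested. For these 28 the count was 26 after scaling libraries to equal totals, against 8.20% of all loci tested under that scaling. It was 21 after scaling by median ratio, against 15.4%. Taken singly, 27 of the 28 were negative in the elongation zone, against 11087 of the 24706 loci tested. In the division zone 21 were positive, with a median of 0.22, against 11895 of the 24706. Most of the 28 carry the H3C2 or H4C7 name and may share reads with each other and with the chosen loci, so they are not independent. Of the 28, 25 met the elongation zone limit of the rule and 0 met the division zone limit, where their differences ran from -0.25 to 0.58. In the elongation zone the 5 ran from -1.80 to -1.40 and the other 28 from -2.58 to 0.00, with 20 of the 28 below the lowest of the 5. The chosen loci were thus not the ones with the largest elongation zone differences. The 0.00 is that of the H4C7 locus XLOC_035000, which counted as 0 in every elongation zone library, so no fall could show there. The linker histones other than hon101 (his1a, the locus named H1, and hon110) had division zone differences of 0.53, 0.39 and 0.37 and elongation zone differences of -0.56, -0.89 and -0.85.

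**Figure D3:**
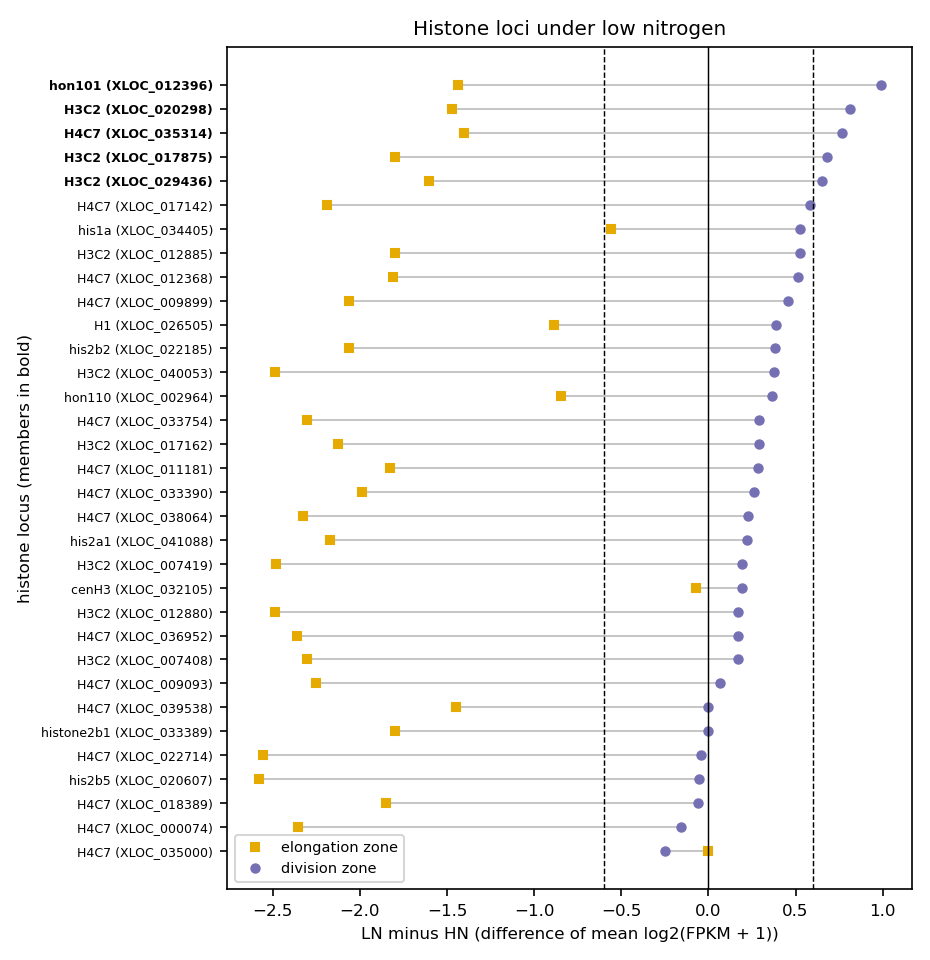
Nitrogen difference (LN minus HN, difference of mean log2(FPKM + 1)) of the 33 histone loci in the elongation zone (yellow squares) and the division zone (purple circles), ordered by the division zone value, with the 5 chosen loci in bold and dashed lines at -0.6 and 0.6. The 5 bold loci lie beyond both dashed lines because the rule chose them so, and the elongation zone values of 20 of the other 28 lie further left than theirs.

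RNRS2, a small subunit of ribonucleotide reductase (GRMZM2G155546, chromosome 6, 118255931 to 118257833), had 9.66 and 7.78 FPKM in LN elongation against 10.3 and 18.1 FPKM in HN elongation libraries. In division zones it had 35.0 and 45.1 FPKM under LN against 28.0 and 23.7 FPKM under HN. Its differences of -0.60 and 0.60 sit at the limits of the rule, and it left the set without replicate 2 of any of the 4 groups and under both scalings. After scaling to equal totals its elongation zone difference was -0.17. Its zone average was -1.47 ± 0.19 (SE; limma, BH-adjusted p = 0.000652). The small subunits RNRS1 and RNRS3 had elongation zone differences of -2.21 and -1.70 and division zone differences of 0.54 and 0.55, just under the limit, and the large subunit RNRL2 had -0.56 and -0.29. Of the 14 loci of the DNA replication list, which includes these 4, 13 were lower in the elongation zone on the zone average (background 27.7%) and dnp1 was higher. Under LN, 9 of the 14 were called lower in the elongation zone (background 12.5%). In the division zone 0 were called higher by limma, with 0 at an unadjusted p under 0.05, and dnp1 was called lower.

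bHLH23, a basic helix-loop-helix transcription factor (GRMZM2G178182, chromosome 2, 193433358 to 193436043), had 9.03 and 11.1 FPKM in LN elongation against 18.2 and 17.9 FPKM in HN elongation libraries. In division zones it had 47.8 and 57.8 FPKM under LN against 23.5 and 20.4 FPKM under HN. LN averaged 2.41-fold HN in the division zone and 0.559 times HN in the elongation zone, and replicates lay close together in all groups. It kept the rule without each library in turn, but after scaling to equal totals its elongation zone difference was -0.35, in place of -0.79, and it left the set. Its zone average was -1.27 ± 0.12 (SE; limma, BH-adjusted p = 0.000134), while the HN zones alone differed by -0.26. It was the only member of the set among 220 loci of other transcription factor families. Of these, 39 (17.7%), bHLH23 included, had the same pair of signs at any size, against 13.2% of all loci tested.

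acco20, an ACC oxidase, which catalyses the last step of ethylene synthesis (GRMZM2G126732, chromosome 4, 177657802 to 177660210), was low throughout. It had 0.287 and 0.224 FPKM in LN elongation against 2.54 and 3.54 FPKM in HN elongation libraries, and 5.02 and 8.75 FPKM in LN division against 4.07 and 3.16 FPKM in HN division libraries. Only the LN elongation libraries stood well apart, at 0.0840 times the HN mean, and acco20 left the set without LN division replicate 2 and without HN division replicate 2. Its zone average was -1.40 ± 0.19 (SE; limma, BH-adjusted p = 0.000739), and the HN zones alone differed by -0.20.

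PYL3 (GRMZM2G154987, chromosome 5, 152250417 to 152251663), of the abscisic acid receptor family, was not called between zones (-0.59 ± 0.31 SE; limma, BH-adjusted p = 0.137). It had 3.41 and 2.51 FPKM in LN elongation against 4.13 and 12.3 FPKM in HN elongation libraries, and 9.66 and 12.5 FPKM in LN division against 6.22 and 4.27 FPKM in HN division libraries. The HN elongation replicates lay far apart, and PYL3 left the set without replicate 2 of that group and after scaling to equal totals. Of 7 receptor loci tested, in a list added after the data were seen, 2 had this pair of signs at any size, against 13.2% of all loci tested. PYL3, chosen for these signs, is 1 of the 2. The second locus that carries the name PYL3 (XLOC_030346) had -1.09 in the elongation zone and 0.02 in the division zone. By limma 0 of the 7 were called for nitrogen in either zone, and at an unadjusted p under 0.05 there were 2 lower in the elongation zone and 1 higher in the division zone.

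**Figure D4:**
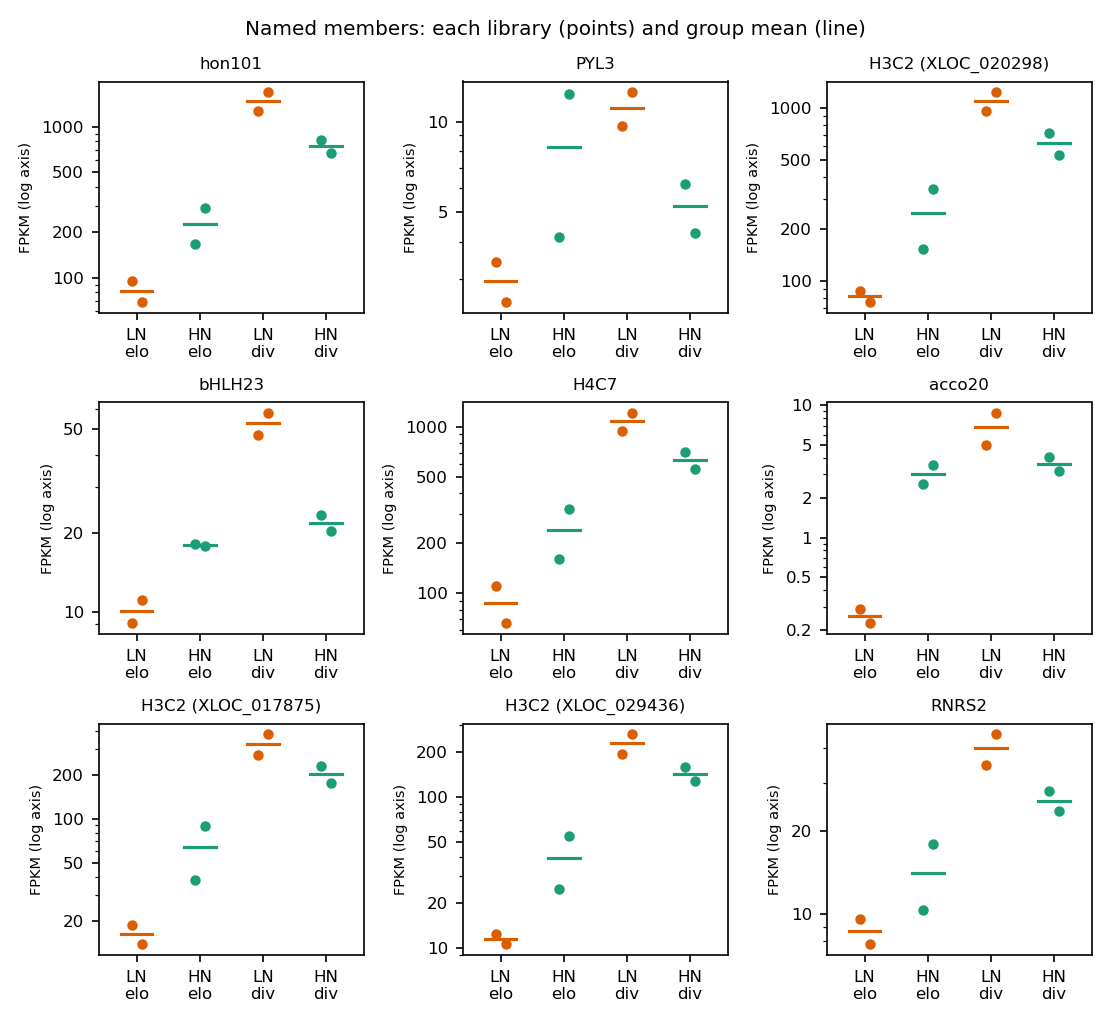
FPKM on a log axis of the 9 named loci in each library (points) with the group mean (line), for LN (orange) and HN (green) in the elongation (elo) and division (div) zones. In every panel the LN points lie below the HN points in the elongation zone and above them in the division zone, as the rule requires; the 5 histone loci fall into the same order of groups.

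Among loci without a gene name that were lower in the elongation zone and above 0 in every library, the most abundant were GRMZM5G851266 and GRMZM2G044762. GRMZM5G851266 had 9.32 and 9.12 FPKM in LN elongation against 20.02 and 42.7 FPKM in HN elongation libraries, and 170 and 223 FPKM in LN division against 87.9 and 72.3 FPKM in HN division libraries. LN averaged 2.45-fold HN in the division zone, and the nitrogen differences were -1.57 in the elongation zone and 1.28 in the division zone. GRMZM2G044762 had 8.51 and 5.85 FPKM in LN elongation against 14.9 and 24.4 FPKM in HN elongation libraries, and 135 and 180 FPKM in LN division against 112 and 89.9 FPKM in HN division libraries. Its zone average of -3.31 ± 0.20 (SE; limma, BH-adjusted p = 2.52e-05) was lower than that of any histone in the set. GRMZM2G016958 had 2.37 and 2.19 FPKM in LN elongation, 4.89 and 5.76 FPKM in HN elongation, 11.0 and 12.4 FPKM in LN division and 5.51 and 5.69 FPKM in HN division libraries. Its HN zones were nearly level (-0.07), and under LN the zones differed by -1.96.

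**Figure D5:**
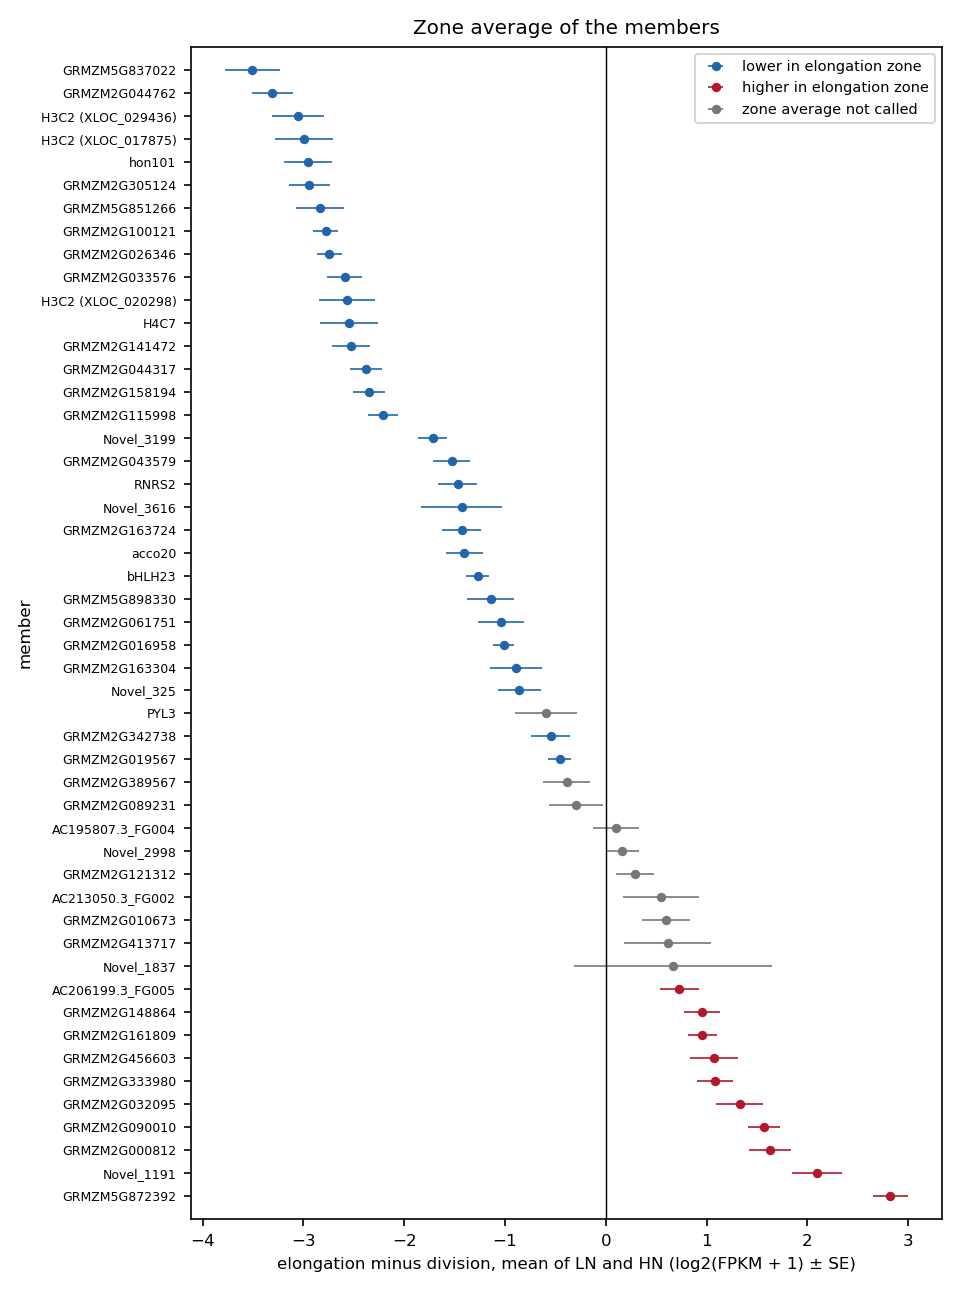
Zone average (elongation minus division, mean of LN and HN, log2(FPKM + 1)) of the 50 loci with its SE from the fit, blue for lower, red for higher and grey for not called in the elongation zone. Values run from -3.51 (GRMZM5G837022) to 2.82 (GRMZM5G872392), and 16 loci, the 5 histones among them, lie at or below -2.21.

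The 10 loci that were higher in the elongation zone carried no gene name. GRMZM5G872392 (chromosome 5, 164895210 to 164898398) had the largest zone average, 2.82 ± 0.17 (SE; limma, BH-adjusted p = 2.46e-05). It had 42.1 and 49.7 FPKM in LN elongation against 92.3 and 71.7 FPKM in HN elongation libraries, and 8.97 and 14.9 FPKM in LN division against 5.21 and 5.02 FPKM in HN division libraries. Both elongation groups lay above both division groups. GRMZM2G032095 was the most abundant of the 10, with 77.5 and 90.5 FPKM in LN elongation, 133 and 217 FPKM in HN elongation, 50.7 and 82.7 FPKM in LN division and 39.9 and 28.9 FPKM in HN division libraries. Its LN zones overlapped, whereas its HN zones differed by 2.29.

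GRMZM2G000812 had 8.28 and 13.3 FPKM in LN elongation, 18.9 and 27.3 FPKM in HN elongation, 4.92 and 6.75 FPKM in LN division and 2.64 and 3.84 FPKM in HN division libraries. GRMZM2G090010 had 4.35 and 5.94, 10.4 and 11.3, 1.96 and 3.35, and 1.34 and 1.21 FPKM in the same groups, and shares its span with another locus. Both followed GRMZM5G872392 in the order of their groups, at lower levels. GRMZM2G161809 had 1.88 and 2.25 FPKM in LN elongation, 4.75 and 5.72 FPKM in HN elongation, 1.83 and 2.80 FPKM in LN division and 0.531 and 0.541 FPKM in HN division libraries. Its zones were level under LN (-0.10) and differed by 2.02 under HN. Over the 10 loci the median difference of elongation minus division was 0.10 at LN and 2.33 at HN, a gap that the rule itself opens.

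The 10 loci not called between zones had zone averages of -0.59 to 0.67. Of these, GRMZM2G121312 had 16.6 and 17.1 FPKM in LN elongation against 27.2 and 37.5 FPKM in HN elongation libraries, and 18.2 and 30.3 FPKM in LN division against 16.9 and 13.5 FPKM in HN division libraries. Its division zone difference of 0.61 was the smallest of the 10, and it left the set under both scalings. The median difference of elongation minus division over the 10 was -0.88 at LN and 0.96 at HN. The rule itself opens this gap, and with zone averages this close to 0 it sets the opposite signs, so nothing is read from them. A call that is missing does not show that the zones were alike.

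In 9 of the 50 loci (18%) at least 1 library was listed at 0, against 7.46% of loci tested, and a 0 here can be a failed estimate. The widest nitrogen differences of the set came from these. Novel_1837, a locus of 215 bases with no gene identifier (chromosome 3, 179930185 to 179930399), had 21.4 and 0 FPKM in LN elongation, 27.9 and 136 FPKM in HN elongation, 163 and 84.2 FPKM in LN division and 0 and 0 FPKM in HN division libraries. Its replicates disagree widely in the elongation zone, and its difference of 6.89 in the division zone is set by the value of 0. GRMZM5G837022 (chromosome 6, 14773749 to 14784314) had 0 and 0 FPKM in LN elongation, 130.1 and 309 FPKM in HN elongation, 309 and 221 FPKM in LN division and 94.8 and 101 FPKM in HN division libraries. It shares its span with 2 other loci, and 1 of them, XLOC_030845, carries the same gene identifier and was read in all libraries, with 10.9 and 11.3 FPKM in LN elongation. The lowest zone average of the set (-3.51) rests on that 0, since under HN this locus was higher in the elongation zone by 1.03.

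AC213050.3_FG002 had 0 and 1.95 FPKM in LN elongation, 5.63 and 2.14 FPKM in HN elongation, 2.71 and 2.63 FPKM in LN division and 0 and 0 FPKM in HN division libraries. AC206199.3_FG005 had 0 and 0.156 FPKM in LN elongation, 4.10 and 4.66 FPKM in HN elongation, 1.77 and 0.586 FPKM in LN division and 0 and 0 FPKM in HN division libraries. Both are low everywhere, and the call of the second as higher in the elongation zone (0.73) ended without LN elongation replicate 2 and after scaling to equal totals. Novel_1191, a locus of 234 bases, had 8.98 and 13.3 FPKM in LN elongation, 23.6 and 14.3 FPKM in HN elongation, 8.44 and 15.9 FPKM in LN division and 0 and 0 FPKM in HN division libraries. Its zone average of 2.10 likewise rests on the 0 in HN division libraries. The other 4 loci with a 0 (Novel_3616, Novel_3199, GRMZM5G898330 and GRMZM2G413717) were named after their values were seen. Novel_3616 had 0 and 0 FPKM in LN elongation against 1.57 and 0.0002 FPKM in HN elongation libraries, and the last value is counted here as a 0, so its supplies are barely separated there. Without the 9, 41 loci remained, with median differences of -0.96 in the elongation zone and 0.77 in the division zone, and with 26 called lower and 8 called higher between zones.

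The limit of 0.6 cuts through a continuous range. In the elongation zone the nearest loci inside were AC195807.3_FG004 (-0.60), RNRS2 (-0.60) and Novel_2998 (-0.61), and the nearest outside were GFT1 (-0.598), the beta-expansin expB2 (-0.597) and GRMZM2G178603 (-0.58). AC195807.3_FG004 spans 109548 bases and overlaps 6 other loci, more than any other locus of the set. In the division zone the nearest inside were GRMZM2G019567 (0.602), RNRS2 (0.604) and GRMZM2G121312 (0.61), and the nearest outside were GRMZM2G076972 (0.599), GRMZM2G031790 (0.596) and GRMZM2G430871 (0.594). expB2, of the wall-loosening expansins, had 99.8 and 97.9 FPKM in LN elongation, 129 and 175 FPKM in HN elongation, 87.9 and 114 FPKM in LN division and 66.2 and 53.0 FPKM in HN division libraries. It thus had the shape of the set and missed it by a margin far below the spread of its replicates.

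The rule used neither span, position nor annotation. The 50 loci had a median span of 1913.5 bases, against 3907.5 over loci tested, and 5 (10%) spanned under 500 bases, against 4.36%. Among the 41 without a 0, the median span was 1965 bases and 2.44% were under 500. They lay on all 10 chromosomes, with 10 on chromosome 1, 8 on chromosome 6 and 7 on chromosome 7. The shares on chromosomes 6 and 7 were 16% and 14%, against 8.40% and 8.03% of loci tested, and the closest pair of neighbours was 1.67 Mb apart. A gene name was available for 9 (18%, against 8.71%), a RefSeq entry for 30 (60%, against 61.8%), and 6 (12%, against 10.7%) had no gene identifier. The 9 include 3 loci of the same name, H3C2. Of 30 gene lists, 27 held no locus of the set, among them those for mitosis, photosystems, cytosolic ribosomal proteins, nitrogen assimilation and wall expansins. These 5 lists had 24, 25, 46, 20 and 12 loci tested. With only 50 of 24706 loci tested in the set, lists of this size would mostly be empty in any case, so nothing is read from it.

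The replicates of these loci leaned one way within groups. Replicate 2 was above replicate 1 in 42 of 50 loci (84%) in HN elongation libraries, against 53.7% of loci tested, and in 42 of 50 (84%) in LN division libraries, against 60.03%. In LN elongation it was above in 20 of 50 (40%, against 51.3%) and in HN division in 8 of 50 (16%, against 40.5%). The replicates farther from the other supply were thus mostly HN elongation replicate 2, LN division replicate 2 and HN division replicate 2. In each case left out, fewer of the 50 loci kept the rule: 35 without HN elongation replicate 2, 28 without LN division replicate 2 and 30 without HN division replicate 2. The part of this spread in the choice of loci was not tested. Leaving out each of the 8 libraries in turn, 12 loci kept the rule every time, among them hon101.

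The 89 loci with the opposite pattern, higher under LN in the elongation zone and lower in the division zone, differed in their zone calls. Of the 50, 60% were called lower and 20% higher in the elongation zone, against 2.25% and 75.3% of the 89, with median zone averages of -1.03 and 1.41. Each set was chosen on the same libraries, and the difference between the sets was not tested.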

How the data were processed

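RNA was sequenced in 8 libraries, and the deposited table gives values per assembled locus, which were taken as FPKM because of their form: neither header nor labels name the unit. Per the submitters' processing notes, TopHat2, edgeR and B73 RefGen_v3 were used, without versions or roles. Normalisation is not given in the sources used here, so a library-wide shift can enter every value. Each of 43110 loci (44070 lines) was kept once. Names came by identifier from a RefSeq table of the later assembly Zm-B73-REFERENCE-NAM-5.0. Positions are the table's, counted from 1. No sequences were used.

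The design planned a count test only if counts were present. A limma model of 4 group means with an intensity trend was fitted to log2(FPKM + 1), which understates differences of low loci, for 24706 loci with a group mean of 1 FPKM or more. P-values were BH-adjusted over all of these (threshold 0.05). With 2 libraries a group, p-values measure the spread pooled over the 4 groups. No replicate block was used. Values under 0.001 FPKM count as listed at 0, and no fold or mean is given for them.

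The loci, the 30 gene lists and the tests were chosen with earlier results of these data known, and 3 lists (abscisic acid receptors, linker histones, ribonucleotide reductase subunits) were added after the data were seen. Loci named were those with a gene name or in a list, the 10 with the largest smaller-of-2 nitrogen difference, the 5 highest levels, the 5 largest zone averages per direction and the 3 nearest each limit. Other subunits, histones, receptors and dnp1, GRMZM2G044317 and GRMZM2G026346 were picked with their values in view. The alternatives changed the pseudocount (to 0.1), filters, limits, scaling (2 kinds), block and trend, and left out each library. In simulated data, the fit called 9.91% of 1.5-fold, 48.7% of 2-fold and 90.4% of 4-fold zone changes, and 0.0204% of unchanged loci. Far fewer loci were changed there than were called in the data, so these shares need not hold for the data. The model was run with limma 3.58.1 in R 4.3.3. Tables and figures came from pandas 2.3.3, numpy 2.4.6 and matplotlib 3.10.9 in Python 3.11.15.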

Additional observations from a re-analysis of the deposited data

Results flagged for a closer look

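The low nitrogen response differed in direction between the zones in 50 loci: both LN libraries lay below both HN libraries in the elongation zone and above both in the division zone, in Novel_3616 by 0.0002 FPKM for 1 HN elongation library. The difference between zones was not tested, because it is what chose these loci.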

How the results depend on the processing

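The number of loci that met the rule was 50. It was 95 with a pseudocount of 0.1, 16 with a limit of 0.8 and 6 with a limit of 1, where a limit of 0.8 or 1 can only remove loci. With a library left out its group has 1 left, so separation is easier to meet and loci can enter for that alone. Leaving out a library gave 40 to 160 loci; LN division replicate 1, HN division replicate 1 and HN elongation replicate 1 raised it most, to 121, 107 and 160, and the cause was not tested. Scaling to equal totals gave 56 loci, 24 of them shared with the 50. This scaling moved the median nitrogen difference of all loci to 0.43 in place of 0.07 in the elongation zone and to 0.14 in place of -0.01 in the division zone, and made 46.7% in place of 52.4% of loci called between zones higher; all 50 loci kept opposite signs under it. Scaling by median ratio gave 59 loci, 47 of them shared. Zone calls of the 50 stayed at 26 to 32 lower and 8 to 11 higher under all alternatives run, with 26 and 8 when loci listed at 0 in any library were left out. With a replicate block, 29 were lower and 10 higher, and over all loci 6528 and 7290, against 6840 and 7543 without it. The deviations of same-numbered libraries correlated at -0.19 to 0.33 between groups, with the 0.33 between LN division and HN elongation. These correlations cannot show whether same-numbered libraries shared a batch, and that was not tested. Counted once per locus and alternative, over the loci called between zones in the main fit, 575 zone averages stayed on their side of the threshold. In 21 cases they did not, and no direction reversed. Loci not called in the main fit are not in these counts. The rule held under all left-out libraries, both scalings and the smaller pseudocount in 8 loci: Novel_1837, GRMZM5G837022, GRMZM5G851266, AC206199.3_FG005, GRMZM2G161809, hon101, GRMZM2G044317 and GRMZM2G026346. Among them, Novel_1837, GRMZM5G837022 and AC206199.3_FG005 had 3, 2 and 3 libraries listed at 0. A 0 can be a failed estimate and makes a wide difference that scaling does not remove. Read depth is unknown, and 2 libraries a group limit the precision.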
